A study of Mus musculus with 25 samples.

Results

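Fgf4, Tdgf1, Lefty1 and Lefty2 encode secreted or membrane-bound signalling proteins of pluripotent cells, and the chromatin contacts of their genes were read from 9 lists of interacting 10 kb bins. A gene was taken from the bins to which the authors gave its name in either list of the cells labelled TKO, the 2 lists that carry gene names. This found Fgf4, Tdgf1 and Lefty2, each in 1 bin, which makes 3 of the 12695 genes named there and 3 of 10485 bins with a gene name. Lefty1 was named in neither list. The 3 bins were touched by 107 of 912901 list entries, which came from 41 distinct bin pairs.

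The study followed contacts from mouse embryonic fibroblasts (MEFs) to embryonic stem (ES) cells with Hi-C, which joins and counts DNA ends that are neighbours in the fixed nucleus, and with HiChIP, which keeps only the joined fragments that an antibody pulls down. The antibodies bound KLF4, a transcription factor, or H3K27ac, the acetylated histone found at promoters and enhancers in use. The MEFs came from rtTA3-OKSM embryos (E13.5), heterozygous for an Oct4-GFP reporter, the OKSM cassette of 4 reprogramming factors and rtTA3, and were taken at passage 3. Reprogramming cells were the same MEFs after 3 days (bulk) or 6 days (sorted for SSEA1) of doxycycline and ascorbic acid, so the induced factors include KLF4 itself. ES cells were V6.5 in 2i medium, which holds inhibitors of MEK and GSK3. The TKO cells are labelled with the same line and medium, at 0 h or 24 h of doxycycline, and the labels do not spell out the abbreviation. There were 10 H3K27ac libraries (2 of MEF, 2 of ES and 3 of TKO at each time), 11 KLF4 libraries (3 of day 3, 4 of day 6 and 4 of ES) and 4 Hi-C libraries (2 of each cell type). No label says which libraries came from separate cultures or animals, so p-values measure the spread between these libraries, which may be technical.

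As background, FGF4 is the growth factor through which ES cells activate their own FGF receptors and the ERK kinases, a signal that prepares them for differentiation. NODAL, a ligand of the TGF-beta family, binds activin receptors together with the co-receptor CRIPTO, the product of Tdgf1, and the receptors phosphorylate SMAD2 and SMAD3. LEFTY1 and LEFTY2 are inhibitors of NODAL whose genes are themselves targets of the pathway. All 4 genes are textbook markers of the pluripotent state or of the early embryo.

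The bin named Tdgf1 is chr9:110940001-110950000 (mm10) and holds all but the end of the gene, which RefSeq places at chr9:110939608-110946158 on GRCm38.p6, the same assembly. The bin named Lefty2 is chr1:180890001-180900000 and holds the gene at chr1:180893108-180899107. The bin named Fgf4 is chr7:144840001-144850000, but RefSeq places Fgf4 at chr7:144861386-144865245, and the gene begins 11.4 kb beyond the end of the named bin. Of 9381 pairs of a bin and a gene with a RefSeq start, 8868 (94.5%) had the start inside the bin, and 72 (0.768%) had it 2 bins away, as for Fgf4. The bin that holds Fgf4, chr7:144860001-144870000, and the bin that holds Lefty1, chr1:180930001-180940000 (gene at chr1:180935022-180938401), carry no gene name. They were therefore read as well, a choice made after seeing the lists, and are called the gene's own bin. The 3 named bins and Fgf4's own bin carry H3K27ac peaks of the TKO cells at both times. Lefty1's own bin is in neither TKO list, so the lists could give it neither a gene name nor a peak. Lefty1 and Lefty2 are close copies of each other, and how reads that fit both were placed is not given in the sources used here, so their values are uncertain where the copies are alike.

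Promoter windows of 300 bases, from 250 before to 50 after the start site (RefSeq, GRCm38.p6), were found for 2 of the 4 genes, and are shown because KLF4 contacts were listed at both loci. They were searched on both strands for GGGNGTG, which reads CACNCCC on the other strand, a core of the sequence KLF factors bind. Matches are in capitals. The Fgf4 window, chr7:144861136-144861435 on the plus strand, lies in the gene's own bin and not in the bin named for it, and has 0 matches. The Tdgf1 window, chr9:110946109-110946408 on the minus strand, lies in the named bin and has 2 matches, which begin at -45 and -26 from the start site in a short repeat. Of 32851 windows, 29.2% had 1 or more matches and 7.55% had 2 or more, so a match is common, and it does not show binding.
Fgf4: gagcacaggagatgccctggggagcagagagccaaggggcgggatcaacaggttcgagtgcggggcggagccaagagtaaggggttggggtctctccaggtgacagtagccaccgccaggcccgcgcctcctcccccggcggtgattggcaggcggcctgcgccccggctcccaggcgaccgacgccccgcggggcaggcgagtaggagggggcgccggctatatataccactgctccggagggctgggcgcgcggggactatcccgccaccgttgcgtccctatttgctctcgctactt
Tdgf1: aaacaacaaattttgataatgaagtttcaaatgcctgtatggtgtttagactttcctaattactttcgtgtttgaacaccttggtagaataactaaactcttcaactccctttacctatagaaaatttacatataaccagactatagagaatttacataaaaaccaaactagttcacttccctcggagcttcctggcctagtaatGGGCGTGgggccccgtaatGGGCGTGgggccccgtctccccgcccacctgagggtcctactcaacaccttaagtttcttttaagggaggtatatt

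Depth and labels bear on every value. The HiChIP libraries held 48.7 to 181 M contacts. Strength is given as the authors' CPM, the contacts of a bin pair scaled to those of its chromosome in that library (counts per 1 M), and the lists keep a HiChIP pair only above 3 CPM, apart from replicates 3 and 4 of KLF4. A pair missing from a list may thus have any lower value, and a number of listed pairs has no replicate check, since each group has 1 list. Of the pluripotency markers, 4 of 6 had a named bin, with 71 H3K27ac interactions in the ES list and 1 in the MEF list, the latter at Nanog. Of the fibroblast markers, 4 of 6 had one, with 1 interaction in ES and 32 in MEF. Libraries that agreed within sampling noise were joined and counted once, which left n = 2 for ES KLF4 (replicates 1 and 2, and 3 and 4, joined), for TKO at 0 h (2 and 3 joined) and for TKO at 24 h (1 and 3 joined).

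The H3K27ac interactions of the 3 named bins were listed in ES and TKO cells and not in MEFs. The MEF list held 0 for each gene. The ES list held 5 for Fgf4, 14 for Tdgf1 and 5 for Lefty2. The TKO list at 0 h held 5, 13 and 2, and that at 24 h held 7, 9 and 0 in the same order. The own bins gave 0 in MEF for Fgf4 and Lefty1, and 12 and 5 in ES. Having more ES than MEF interactions is common: 65.4% of the 12692 genes with 1 bin had more in ES, and 14.7% had fewer. These genes, like the 3 here, were named in lists of TKO cells, labelled with the ES line, so the choice may favour ES. H3K27ac contacts per library were also more in ES (166 to 168 M) than in MEF (75.0 to 105 M). In the MEF list 39.3% of the named bins of chromosome 7, 43.2% on chromosome 9 and 68.5% on chromosome 1 also had 0. Because no MEF list entry touches the named or own bins of these genes, 0 of their interactions could be tested between MEF and ES.

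**Figure D1:**
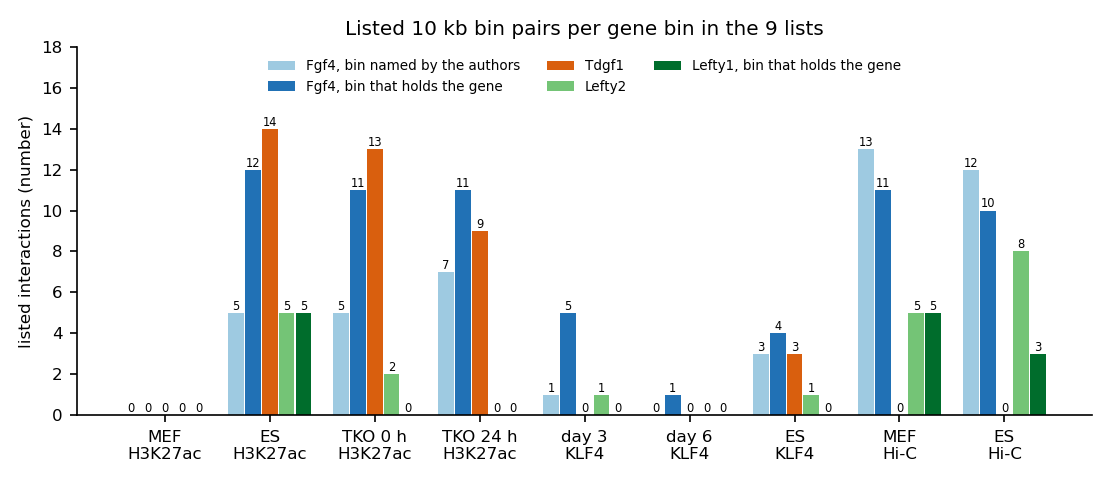
Bars give the number of listed bin pairs (vertical axis) that touch each gene bin in each of the 9 lists (horizontal axis), 1 bar per bin, with the number printed above it. All bars are at 0 in the MEF H3K27ac list, and Tdgf1 has the most of the 5 bins in the ES H3K27ac list (14) but 0 in both Hi-C lists.

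The numbers for Tdgf1 and for Fgf4's own bin stood high on their chromosomes. Over the 627 bins with a gene name on chromosome 9, the mean was 3.73 in the ES H3K27ac list, and 97.0% of them had fewer than the 14 of Tdgf1. The share was 95.9% in TKO at 0 h and 91.1% at 24 h. For the bin named Fgf4 the chromosome 7 mean was 4.12 over 920 bins, and 63.9% had fewer than its 5. For Fgf4's own bin 92.6% had fewer than its 12 in ES, 91.1% had fewer than its 11 at 0 h and 93.8% fewer than its 11 at 24 h. In the same order the bin to the left of Fgf4's own bin had 13, 12 and 13 entries. The bin to the right of Tdgf1 had 11, 7 and 10, so high numbers were not limited to the gene bins. For Lefty2 the chromosome 1 mean was 2.16 over 524 bins, and 83.2% had fewer than 5 in ES, but 31.7% had fewer than its 2 in TKO at 0 h.

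Fgf4, the ligand, made its strongest H3K27ac contact between its own bin and the next bin to the left, that is, toward lower coordinates. The ES libraries gave 57.7 and 56.3 CPM for this pair, or 57.0 ± 1.03 CPM (SD, n = 2). TKO at 0 h gave 60.3, 67.8 and 65.2 CPM, or 63.4 ± 4.43 CPM (SD, n = 2), and TKO at 24 h gave 38.1, 47.1 and 46.3 CPM, or 44.8 ± 3.22 CPM (SD, n = 2). The 3 libraries at 24 h were all below the 3 at 0 h. In each of these lists the pair was stronger than over 99% of the 10 kb pairs of chromosome 7: 99.7% of 1386 in ES, 99.7% of 1815 at 0 h and 99.8% of 1637 at 24 h were weaker.

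The partner to the right of Fgf4's own bin was next in strength, with 25.9 ± 0.624 CPM (SD, n = 2) in ES, 36.1 ± 1.93 CPM (SD, n = 2) at 0 h and 27.6 ± 1.46 CPM (SD, n = 2) at 24 h. Next in ES and at 24 h came the pair 20 kb apart that joins Fgf4's own bin to the bin the authors named Fgf4, at 15.2 ± 1.49 and 14.3 ± 1.87 CPM (SD, n = 2 for both). At 0 h the pair 40 kb to the left, with a bin that has H3K27ac peaks at both times, was above it, at 17.9 ± 0.595 against 15.1 ± 3.65 CPM (SD, n = 2 for both). The farthest partner in the ES list lay 270 kb to the right, at 3.61 ± 0.505 CPM (SD, n = 2), close to the cutoff.

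Fgf4 lies among other FGF genes, and 2 of them were its partners. Fgf3, a related ligand, is named in the bin next to the one named Fgf4, and that pair had 6.99 ± 0.192 CPM in ES, 7.48 ± 0.1604 CPM in TKO at 0 h and 8.26 ± 1.74 CPM at 24 h (SD, n = 2 for each). Fgf15, an FGF that acts at a distance as a hormone, is named with Gm26793 in a bin 50 kb to the right, and that pair had 3.07 ± 0.0474 CPM in ES and 4.05 ± 0.00696 CPM at 24 h (SD, n = 2) and was not listed at 0 h. Of the chromosome 7 pairs at the same distance, 45.0% in ES, 27.4% at 0 h and 37.2% at 24 h were weaker than the Fgf3 pair. For the Fgf15 pair 0% were weaker in ES and 23.1% at 24 h, so neither pair was strong for its distance. From Fgf4's own bin the same 2 partners were stronger. The pair with the Fgf3 bin had 13.0 ± 1.85 CPM in ES and the pair with the Fgf15 bin had 10.4 ± 0.0860 CPM (SD, n = 2). There 98.2% and 95.9% of the chromosome 7 pairs at the same distance were weaker.

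The bin named Fgf4 had its strongest pair with the next bin to the right, which is also the partner of the strongest pair of Fgf4's own bin. Its libraries gave 22.4 and 20.02 CPM in ES, 23.8, 26.6 and 23.3 CPM at 0 h, and 23.0, 23.9 and 22.2 CPM at 24 h. The libraries at 24 h overlapped those of both other groups, and all 3 at 0 h were above both of ES. The pair 20 kb to the right, with Fgf4's own bin, was second in all 3 lists. The third was 10 kb to the left in ES, with the Fgf3 bin, and 20 kb to the left in both TKO lists.

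Tdgf1, the co-receptor gene, carried the strongest contacts of the 3 named bins. The pair with the next bin to the right, named Lrrc2 by the authors, had 77.0 and 75.9 CPM in the ES libraries (76.4 ± 0.797 CPM, SD, n = 2), from 681 and 682 counts. TKO at 0 h gave 55.6, 64.3 and 60.5 CPM (59.0 ± 4.87 CPM, SD, n = 2), and TKO at 24 h gave 49.6, 47.7 and 47.7 CPM (48.1 ± 0.645 CPM, SD, n = 2). The libraries of the 3 groups did not overlap. In ES 99.8% of 1099 listed pairs of 10 kb on chromosome 9 were weaker, at 0 h 99.7% of 1256 and at 24 h 99.8% of 1422. Ranks within lists of different lengths do not measure a change.

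The next bin to the right again, 20 kb from Tdgf1, gave 42.0 ± 1.18 CPM in ES, 40.4 ± 2.03 CPM at 0 h and 32.3 ± 2.01 CPM at 24 h (SD, n = 2 for each). The 20 kb pair was also stronger than 99.8% of 932 such pairs in ES. To the left the adjacent bin gave 21.1 ± 1.98, 21.9 ± 2.21 and 21.3 ± 1.76 CPM in the same order, and those groups overlapped. Both partners to the right and the adjacent bin to the left carry H3K27ac peaks at 0 h and 24 h, while the bins 30, 40 and 50 kb to the right carry peaks at 24 h only. Tdgf1 is on the minus strand, so its start site faces the right.

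Other named partners of Tdgf1 were weaker. The bin of 1700061E17Rik and Gm10030, 40 kb to the right, had 11.6 ± 0.767 CPM in ES, 9.56 ± 1.98 CPM at 0 h and 7.24 ± 1.43 CPM at 24 h. Fam240a, 30 kb to the left, had 6.80 ± 2.22, 5.83 ± 1.99 and 6.77 ± 1.83 CPM. Tmie, a hair-cell gene 60 kb to the left, had 4.32 ± 0.446 CPM in ES and 4.92 ± 0.709 CPM at 0 h and was not listed at 24 h (SD, n = 2 throughout). The farthest partner was 130 kb to the right in ES and 120 kb at 0 h, and at 24 h none was beyond 50 kb. Lists at 24 h thus kept the near partners of Tdgf1, and the 4 that were listed at 0 h and not at 24 h had 3.76 to 4.92 CPM at 0 h, close to the cutoff.

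Lefty2, a NODAL inhibitor, had its strongest H3K27ac pair with the next bin to the left, which carries H3K27ac peaks at both times. The ES libraries gave 16.95 and 17.9 CPM (17.4 ± 0.655 CPM, SD, n = 2), from 214 and 227 counts. TKO at 0 h gave 5.60, 5.18 and 6.00 CPM (5.59 ± 0.0139 CPM, SD, n = 2). All 3 TKO libraries were below both ES libraries, and the pair was not in the list at 24 h. Among 10 kb pairs of chromosome 1 it was stronger than 96.6% of 908 in ES and 41.4% of 1789 at 0 h. The farthest partner, 30 kb to the right, had 5.25 ± 0.369 CPM (SD, n = 2).

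Lefty1 and Lefty2 shared partners in ES cells. Of the 5 H3K27ac partners of Lefty1's own bin in ES and the 5 of Lefty2, 3 were the same bins (3 of 5 for each gene). These 3 lie between the 2 gene bins or next to Lefty2. How many partners other bins 40 kb apart share was not counted, so the overlap may be no more than nearness gives. One of them, the bin to the left of Lefty2, chr1:180880001-180890000, lies 50 kb from Lefty1 and had 7.23 ± 0.250 CPM with it. That bin had 14 entries in the ES list. Another, chr1:180920001-180930000, next to Lefty1, had 9.24 ± 0.967 CPM with it (SD, n = 2 for each). The pair that joins the Lefty1 and Lefty2 bins, 40 kb apart, was in none of the 9 lists. Lefty1's own bin had 0 entries in both TKO lists and in the 3 KLF4 lists. Its partner named Tmem63a, next to it on the right, had 5.09 ± 0.147 CPM in ES (SD, n = 2).

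**Figure D2:**
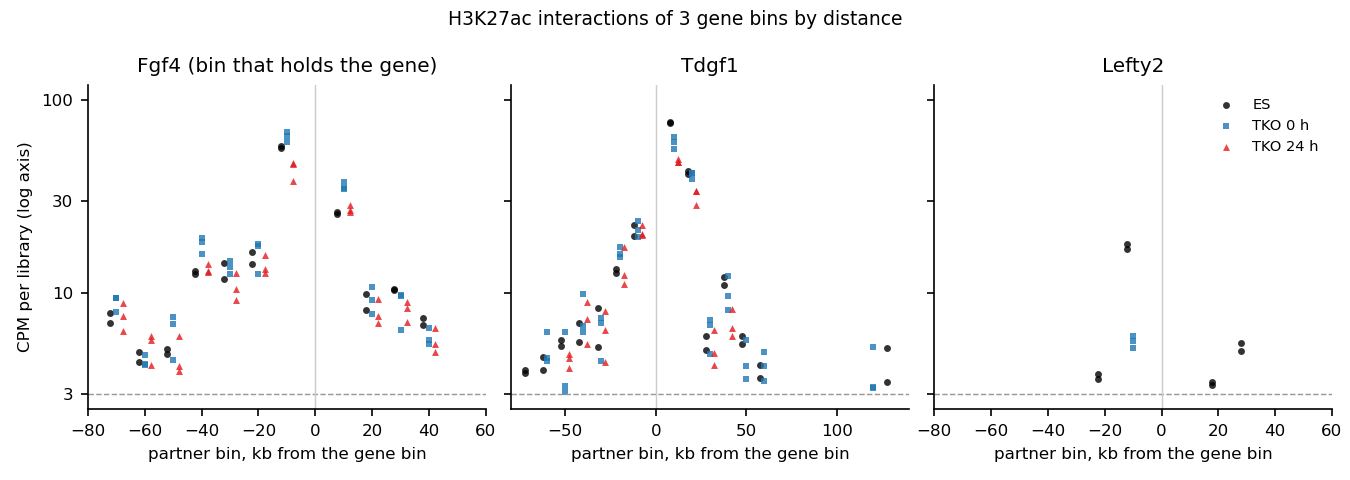
Each point is 1 library's CPM (vertical log axis) for a listed H3K27ac pair, against the distance of the partner bin from the gene bin in kb (horizontal axis, higher coordinates to the right), for ES, TKO 0 h and TKO 24 h, drawn slightly apart. The dashed line is the lists' cutoff of 3 CPM, the ES partner of Fgf4 at 270 kb is outside the axis, and 1 partner of Lefty2 is not drawn. Tdgf1 peaks to the right at 77.0 and 75.9 CPM in the ES libraries, and Lefty2 has no points at 24 h.

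Whether 24 h of doxycycline changed the contacts in TKO cells was tested with edgeR on pairs present in both lists, relative to the typical pair (median log2 change over all pairs 0.007, and -0.10 without TMM scaling, which moved the calls over all pairs from 390 higher and 1386 lower to 155 and 2670). None of the 14 pairs of the named bins that could be tested was called at an adjusted p under 0.05 (0 of 5 for Fgf4, 0 of 9 for Tdgf1), where 2.62% of the 67728 tested pairs were called. At an unadjusted p under 0.05 there was 1, and DESeq2 gave 0 unadjusted and called 0 of the 6 for which it gave an adjusted p. Lefty2 had no pair in both lists. The strongest Tdgf1 pair, with Lrrc2, had a log2 change of -0.19 with an SE of 0.105 (edgeR adjusted p = 0.418), and the 20 kb pair had -0.23 with an SE of 0.113 (edgeR adjusted p = 0.353). All 4 tested pairs to the right of Tdgf1 had values below 0, from -0.36 to -0.19, and the 5 to the left lay between -0.08 and 0.27. The 5 pairs of the bin named Fgf4 ran from -0.01 to 0.32, with a median of 0.24.

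Of the 11 pairs of Fgf4's own bin, 1 was called in that comparison. It was the strongest, with the next bin to the left, which fell by 0.38 on the log2 scale at 24 h with an SE of 0.105 (edgeR adjusted p = 0.0165). Over the alternatives its adjusted p ran from 5.9e-05 to 0.127: it was not called by DESeq2 (adjusted p = 0.127), nor without TKO 0 h replicate 1 (0.0640), TKO 0 h replicate 2 (0.0563) or TKO 24 h replicate 1 (0.0807) in edgeR. The next pair in strength, to the right, had -0.25 with an SE of 0.116 (edgeR adjusted p = 0.286).

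ES and TKO cells at 0 h carry the same line and medium in their labels, and comparing them was a choice made after the values of Lefty2 had been seen. The labels describe different library preparations for the 2, so the cells and the preparation cannot be told apart. Of the 18 pairs of the named bins in both lists, 7 were called, all lower in TKO: 0 of 4 for Fgf4, 5 of 12 for Tdgf1 and 2 of 2 for Lefty2. DESeq2 called 2 of the 10 pairs for which it gave an adjusted p, the strongest pairs of Lefty2 and of Tdgf1. Over all 58574 pairs 16.5% were called, and 7.38% were called lower in TKO. These changes are relative to the typical pair: without TMM scaling the median over all pairs was 0.29 in place of -0.007, the calls over all pairs split into 17204 higher and 959 lower in place of 5353 and 4321, and 3 of the 18 pairs were called. The pluripotency markers moved the same way: of 56 pairs of the 4 marker genes with a bin, 19 were called lower in TKO and 0 higher. Their median log2 change was -0.35. Lists of other Nodal and FGF-ERK pathway genes, described below, moved less. The Nodal list had 3 higher and 7 lower of 69 (median -0.06), and the FGF-ERK list 1 higher and 5 lower of 71 (median -0.07). The FGF-ERK list holds Fgf3 and Fgf15, so its pairs include those that join their bins to the Fgf4 bins. The pair of Fgf4's own bin with the Fgf15 bin is among its calls. The part of the markers in the result for Fgf4, Tdgf1 and Lefty2 was not tested.

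The Lefty2 pair to the left was lower in TKO at 0 h by the widest margin of the 18, with a log2 change of -1.92 and an SE of 0.138 (edgeR adjusted p = 1.17e-19). It was called under each alternative, with adjusted p from 3.64e-30 to 1.06e-09, and without TMM its value was -1.62. The Tdgf1 pair with Lrrc2 had -0.66 with an SE of 0.0713 (edgeR adjusted p = 1.40e-11) and was called under each alternative, with adjusted p up to 0.00227. The other 4 calls for Tdgf1, at 20, 40 and 50 kb to the right of Tdgf1 and 50 kb to the left, had -0.73 to -0.35 and edgeR adjusted p from 0.00213 to 0.0233. None of these 4 was called without TMM, and each also lost its call without 1 or more single libraries of ES or TKO 0 h.

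Of the 11 pairs of Fgf4's own bin in the same comparison, 2 were called lower in TKO. The pair with the Fgf15 bin had 10.5 and 10.4 CPM in ES against 6.44, 9.78 and 9.57 CPM in TKO at 0 h, a log2 change of -0.66 with an SE of 0.168 (edgeR adjusted p = 0.00281). The pair 40 kb to the right had -0.61 with an SE of 0.193 (edgeR adjusted p = 0.0185). Neither was called without TMM, by DESeq2 where it gave an adjusted p, or without TKO 0 h replicate 1. Without TMM 2 other pairs of this bin were called, both higher in TKO: the pair 10 kb to the right had 0.43 (edgeR adjusted p = 0.00155) and that 40 kb to the left 0.45 (edgeR adjusted p = 0.00885), so the direction of the calls at this bin depends on the scaling. The strongest pair, to the left, had -0.18 with an SE of 0.0730 (edgeR adjusted p = 0.0892) and turned to 0.12 without TMM.

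**Figure D3:**
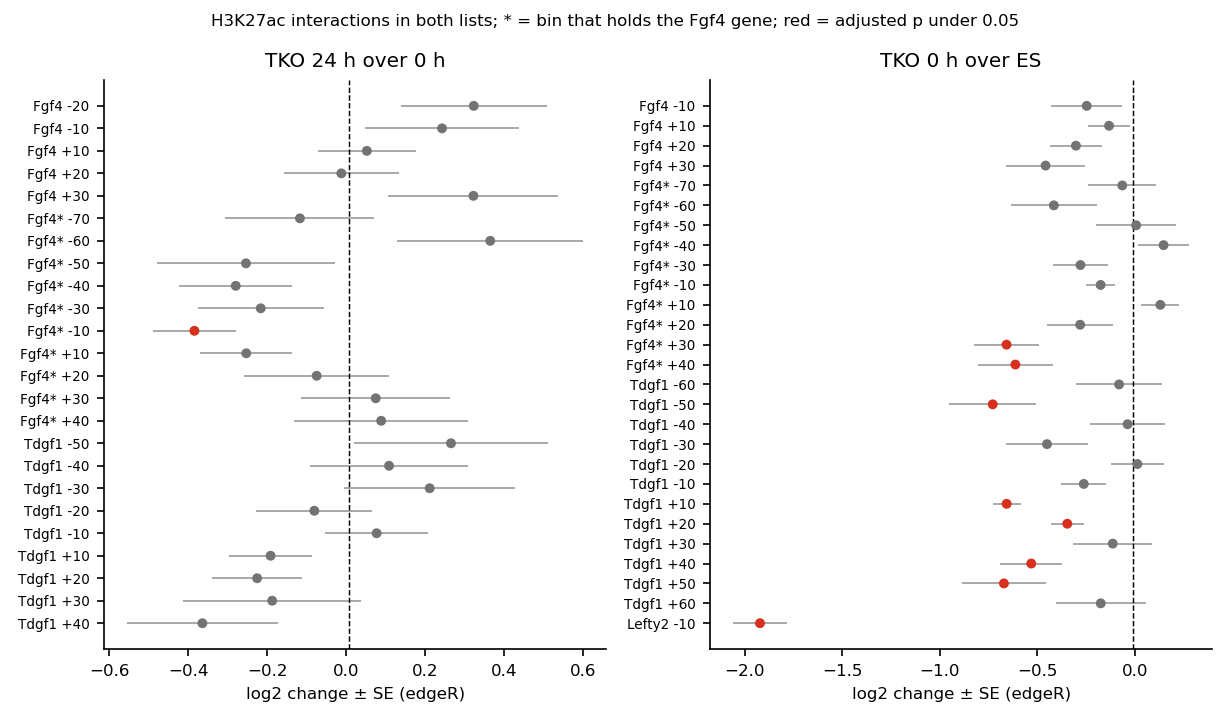
Points are edgeR log2 changes with their SE (horizontal axis) of each H3K27ac pair in both lists, named by gene and by kb to the partner bin (vertical axis), for TKO 24 h over 0 h and for TKO 0 h over ES. The dashed line is the median of all tested pairs, and red marks an adjusted p under 0.05: 1 pair in the first panel and 8 in the second, where 1 pair is not drawn, with Lefty2 to the left at -1.92.

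KLF4 contacts at these bins were few in number, as at the typical named bin of their chromosomes. The named bins had 1 interaction for Fgf4, 0 for Tdgf1 and 1 for Lefty2 at day 3, 0 for each at day 6, and 3, 3 and 1 in ES. Over the named bins of the same chromosome the mean in the ES list was 1.60 for Fgf4's, 1.14 for Tdgf1's and 0.660 for Lefty2's. In that list 74.1%, 85.3% and 59.9% of them had fewer than Fgf4, Tdgf1 and Lefty2. At day 3 the means were 1.075, 0.855 and 0.359 in the same order. There 55.7% had fewer than Fgf4 and 77.5% fewer than Lefty2, and 60.3% had, like Tdgf1, none. At day 6 the list was short, with 4047 entries in all, and the means of the 3 chromosomes were 0.228, 0.0829 and 0.0210.

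The strongest KLF4 pair of the named bins was again Tdgf1 with Lrrc2, in ES. Its 4 libraries gave 7.20, 9.20, 19.3 and 23.2 CPM, or 14.7 ± 9.61 CPM (SD, n = 2). Replicates 3 and 4 were more than 2 times as high as replicates 1 and 2, and these are the 2 pairs of libraries that were joined. The 20 kb pair of Tdgf1 gave 7.63, 6.26, 12.9 and 9.63 CPM (9.08 ± 2.77 CPM, SD, n = 2), with replicates 3 and 4 again above the others. No KLF4 entry of Tdgf1 was listed at day 3 or day 6, so these pairs could not be tested. The weakest KLF4 pair of Tdgf1, 20 kb to the left, had 4.45 ± 0.288 CPM (SD, n = 2).

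The bin named Fgf4 had KLF4 pairs in ES with the bins 10 kb to the right (7.05 ± 0.126 CPM), 20 kb to the right (5.80 ± 0.937 CPM) and 20 kb to the left (4.26 ± 1.02 CPM; SD, n = 2 for each). The last was also the pair listed at day 3, at 5.62, 4.90 and 4.73 CPM. The Lefty2 pair to the left, the same pair that was strongest for H3K27ac, had 4.02, 5.03 and 4.42 CPM at day 3 and 4.62, 3.51, 5.46 and 4.68 CPM in ES. Those groups overlapped. In edgeR 0 of these 2 pairs were called between day 3 and ES, with 0 at an unadjusted p under 0.05, and DESeq2 gave 0 unadjusted and called 0 of the 1 with an adjusted p, where 7.17% of 7387 pairs were called. The log2 changes were -0.20 with an SE of 0.237 for Fgf4 (edgeR adjusted p = 0.702) and -0.10 with an SE of 0.203 for Lefty2 (edgeR adjusted p = 0.847).

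Fgf4's own bin had 5 KLF4 pairs at day 3, 1 at day 6 and 4 in ES. In the same order 94.7%, 82.7% and 84.6% of the 920 named bins of chromosome 7 had fewer than Fgf4's own bin. The pair with the next bin to the left gave 8.24, 7.92 and 6.17 CPM at day 3 (7.44 ± 1.12 CPM, SD, n = 3) and 10.96, 6.85, 15.3 and 13.6 CPM in ES (11.9 ± 3.48 CPM, SD, n = 2). ES replicate 2 lay within the day 3 range and the other 3 ES libraries above it. This pair, 1 of 3 tested, was higher in ES by a log2 change of 0.79 with an SE of 0.207 (edgeR adjusted p = 0.00764). It was not called by DESeq2 (adjusted p = 0.232) or without any 1 of the 3 day 3 libraries (0.0538 to 0.171 in edgeR), in a range over the alternatives from 0.000807 to 0.232. The pair with the bin to the right was the one listed in all 3 KLF4 lists. It had 7.69 ± 0.870 CPM at day 3 (SD, n = 3), 4.72 ± 0.787 CPM at day 6 (SD, n = 4) and 8.66 ± 0.133 CPM in ES (SD, n = 2). Relative to the typical pair it differed by 0.22 with an SE of 0.198 between day 6 and ES (edgeR adjusted p = 0.606, 3.37% of 2076 pairs called) and by 0.02 with an SE of 0.185 between day 3 and day 6 (edgeR adjusted p = 0.964, 5.37% of 2571 pairs called). In each of these 2 comparisons 0 of 1 pair was called and 0 was at an unadjusted p under 0.05, also in DESeq2, which gave no adjusted p for the pair between day 6 and ES. Without TMM the medians of all pairs moved to 0.58 and -0.58, and the pair followed them, to 0.83 (called) and -0.58 (called, and reversed in sign).

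**Figure D4:**
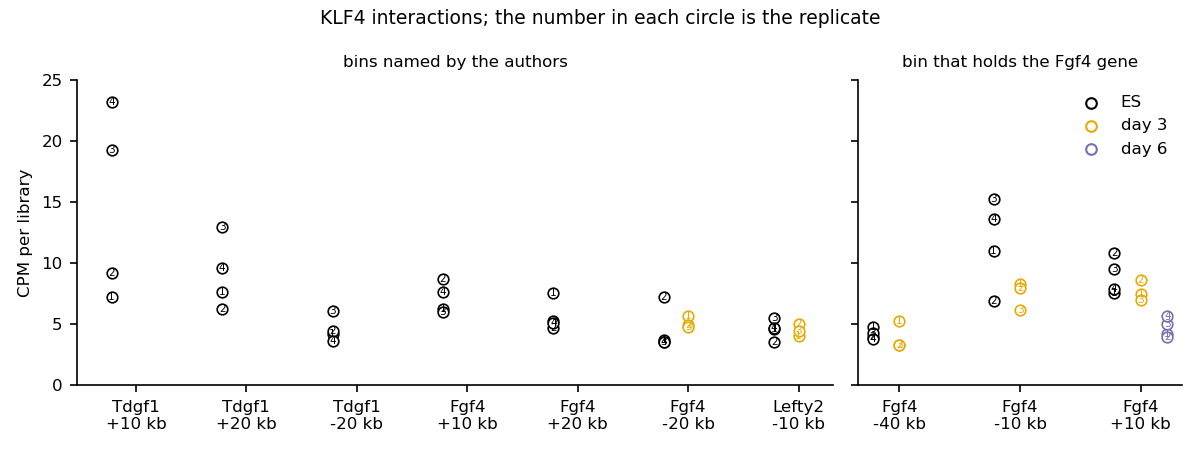
Circles are the CPM of single libraries (vertical axis) for each listed KLF4 pair of the named bins, by gene and kb to the partner, and, in the right panel, for the pairs of Fgf4's own bin that are in more than 1 list; the number in a circle is the replicate and its colour the group. Replicates 3 and 4 of ES stand at 19.3 and 23.2 CPM for the Tdgf1 pair with Lrrc2, above replicates 1 and 2.

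Without an antibody, the 3 loci looked different from the HiChIP lists. The Hi-C lists held 13 interactions of the bin named Fgf4 in MEF and 12 in ES, 0 and 0 of Tdgf1, and 5 and 8 of Lefty2. Over the named bins of chromosome 7 the means were 4.82 and 8.12, and 96.0% had fewer than Fgf4 in MEF and 74.02% in ES. Over those of chromosome 9 the means were 3.01 and 4.83, and 29.5% and 14.7% had, like Tdgf1, none. The bins 10 to 50 kb to the right of Tdgf1 also had 0 in MEF and 0 to 3 in ES, whereas those 10 to 50 kb to the left had 1 to 4 and 2 to 8. Strength here is the authors' Hi-C signal, a count scaled by a constant of each chromosome and library, listed from 15 upward.

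The Fgf4 bin had partners on both sides in both cell types. The strongest pair was with the next bin to the right, at 73.6 and 85.4 in the MEF libraries and 69.2 and 65.6 in those of ES. In MEF the next pairs were with the Fgf3 bin to the left (77.9 and 58.8) and the bin 20 kb to the left (62.1 and 68.6). In ES they were with Fgf4's own bin (68.0 and 57.3) and the Fgf3 bin (53.4 and 54.2). The pair with the Fgf15 bin had 27.4 and 35.0 in the MEF libraries, against 31.6 and 45.8 in those of ES. The farthest partner was 70 kb to the left in MEF and 60 kb away in ES. All 5 H3K27ac partners of this bin in ES were among its Hi-C partners in both cell types. They make 38.5% of the 13 in MEF and 41.7% of the 12 in ES. Both Hi-C lists hold every bin within 60 kb of this bin on either side, and the 5 lie within 50 kb. Any partner so near would be shared, so the overlap tells nothing particular of these 5.

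Lefty2's Hi-C partners in ES lay on its right side only, at 20 kb and from 50 to 110 kb. The strongest 3 were at 20 kb (41.0 and 44.3), at 70 kb (32.8 and 28.2) and at 50 kb, the bin of Tmem63a, a membrane channel gene (22.3 and 32.2). In MEF the strongest was with the next bin to the left (40.8 and 53.2), then 30 kb to the left (38.2 and 25.96) and 80 kb to the right (21.6 and 29.7). The bin of 2210411M09Rik, 60 kb to the right, had a mean of 22.0 in MEF and 25.6 in ES. Lefty1's own bin had 5 Hi-C partners in MEF, on both sides, and 3 in ES, all on its right. Those 3 were also partners of Lefty2, which is 100% of the list of Lefty1 and 37.5% of that of Lefty2. The share for other bins so near each other was not counted here either. The strongest of the 3 for Lefty1 was the bin of 2210411M09Rik (45.7 and 62.4).

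Between MEF and ES, 0 of 15 Hi-C pairs of the named bins were called by edgeR (0 of 12 for Fgf4, 0 of 3 for Lefty2), where 0.0322% of 124204 pairs were called. At an unadjusted p under 0.05 there were 2, and DESeq2 gave 0 on both counts. These 2 were Fgf4 pairs to the left: that at 60 kb had a log2 change of 0.85 with an SE of 0.309 (edgeR adjusted p = 0.577), and that at 50 kb had 0.67 with an SE of 0.294 (edgeR adjusted p = 0.748). The median over the 15 was 0.07, against 0.002 over all pairs. The pair of Fgf4's own bin with the bin to its left had 76.5 and 84.0 in MEF, and 54.7 and 52.1 in the ES libraries, with a log2 change of -0.64 and an SE of 0.224 (edgeR adjusted p = 0.530).

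**Figure D5:**
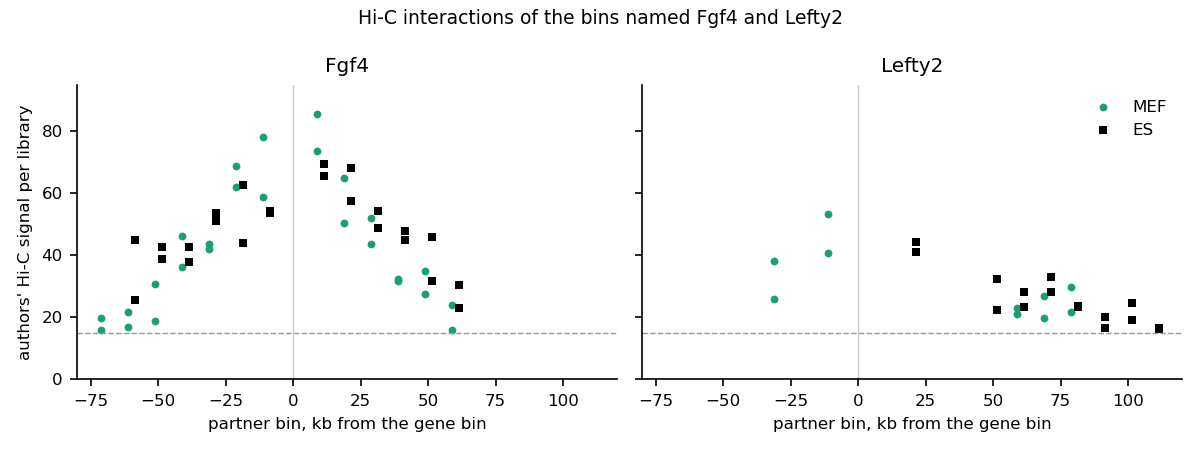
Points are the authors' Hi-C signal of single libraries (vertical axis) for listed pairs of the bins named Fgf4 and Lefty2, against kb to the partner bin (horizontal axis), in MEF and ES, drawn slightly apart; the dashed line is the lowest listed signal, 15. Fgf4 has points on both sides in both cell types, and in ES Lefty2 has points on the right only.

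The listed contacts of the 3 named bins lay within the authors' domains, though most were too short to reach a domain end. The bin named Fgf4 and Fgf4's own bin lie in 1 topological domain of 480 kb in both MEF and ES, chr7:144440001-144920000, 70 kb and 50 kb from its right end. Tdgf1 lies in a domain of 880 kb in MEF and of 1800 kb in ES, and Lefty2 in domains of 1400 kb and 1040 kb. Of the interactions of the 3 named bins, 0 left their domain in either set. The Tdgf1 bin was at least 330 kb and the Lefty2 bin at least 340 kb from a domain end. Their farthest listed partners were 130 kb and 110 kb away, so for them the count of 0 says little. The share of all listed pairs that cross a domain end was not counted. The pair of Fgf4's own bin 270 kb to the right, in the ES H3K27ac list, reached past the domain's end. The domain lists have no replicates.

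Across the 9 lists, the numbers of each gene rose and fell much like those of some other genes. As a description, by the Pearson correlation of log2(number + 1) over the 9 lists, among 1607 or 1608 genes with 10 or more ES H3K27ac interactions, the closest to Fgf4 were Kcnk5 (0.964), Elf3 (0.951) and Glod5 (0.948). For Tdgf1 they were Eif2s2 (0.999), Dppa5a (0.996) and Gm21992 (0.995), and like Tdgf1 these had 0 interactions in both Hi-C lists. Dppa5a, a marker of pluripotent cells, had 19, 16 and 17 in the ES, 0 h and 24 h H3K27ac lists. For Lefty2 they were Zfp90 (0.906), Sema5b (0.889) and Reep4 (0.833). The correlation compares the pattern and not the level: Sema5b had 16 in the ES H3K27ac list and 32 in ES Hi-C, and Lefty2 had 5 and 8. The limit of 10 also leaves out genes with as few as Fgf4 and Lefty2 had. The 9 points share list depth and cutoffs, so high values are easily reached.

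Other genes of the pathways were read the same way. Among all genes with 1 bin named in the TKO lists, 65.4% had more H3K27ac interactions in ES than in MEF and 14.7% fewer. Of 17 genes in the Nodal list 12 had 1 named bin. In 9 of the 12 there were more in ES and in 2 fewer, 86 against 25 in total. The 2 with fewer were Furin, a protease that activates NODAL, at 1 in ES and 8 in MEF, and the signal carrier Smad3, at 2 and 4. Smad7, an inhibitor of the receptors, had 28 in ES and 8 in MEF, Nodal itself 21 and 0, Foxh1, the SMAD partner that binds DNA, 10 and 0, and Skil, a SMAD co-repressor, 7 and 2. Of 19 genes in the FGF-ERK list 17 had a bin, and 12 had more in ES and 3 fewer, 92 against 39. The 3 with fewer were the receptor Fgfr1 (3 in ES and 5 in MEF), the exchange factor Sos1 (6 and 8) and the ERK phosphatase Dusp6 (7 and 8). The receptor Fgfr2 had 13 and 2, the ERK-induced factor Etv5 11 and 1, and the feedback inhibitors Spred2 and Spry2 10 and 3, and 9 and 1.

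Of their interactions in both the MEF and ES lists, edgeR called 4 higher and 2 lower in ES of 13 for the Nodal list (median log2 change -0.09) and 7 higher and 4 lower of 25 for the FGF-ERK list (median -0.07), where 32.0% of all 17901 pairs were called and the median was -0.04. At 24 h of doxycycline in TKO cells, 0 of 65 were higher and 2 lower for the Nodal list (median -0.14), and 1 of 71 was higher and 3 lower for the FGF-ERK list (median 0.010), where 2.62% of all pairs were called. The FGF-ERK pairs in TKO cells again include those that join the Fgf3 and Fgf15 bins to the Fgf4 bins. Between day 3 and ES for KLF4, the counts were 0 of 4 for the Nodal list and, for the FGF-ERK list, 2 higher of 17, where 7.17% of all pairs were called.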

How the data were processed

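The authors deposited 9 lists of interacting 10 kb bins, per the file headers with 1 p-value per pair and, for each library, raw counts, CPM and a ratio to the value at that distance. The Hi-C column the authors headed CPM was treated as a signal, since it is no share of contacts. The deposited domain lists hold a score that was not used. Bowtie2 2.2.3 and mm10 are named in the submitters' processing notes. HiChIP contact totals were taken as count over CPM, summed over chromosomes. Listed pairs have p under 0.1 in HiChIP. Libraries whose counts agreed (chi-square p of 0.05 or more, over pairs at 6 CPM or signal 30 and above) were joined where another pair of libraries differed. In the day 6 group no libraries differed, and all 4 were kept, so their spread is counting noise.

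Pairs in both lists of a comparison were tested with edgeR 4.0.16 (R 4.3.3) by quasi-likelihood on raw counts, with filterByExpr, TMM on contact totals (count sums in Hi-C) and Benjamini-Hochberg adjustment over all pairs, and called at an adjusted p under 0.05. The test says nothing of pairs in 1 list. DESeq2 1.42.0 and further alternatives are given at the end. Simulated counts with known changes were used to test the fits. Python 3.11.15 with pandas 2.3.3 made the other tables. Distances are between bin starts, and left and right mean lower and higher coordinates. Named partners are the 3 strongest per gene and list, those with a gene name, the farthest and any called pair. The genes, lists and comparisons were chosen with earlier results of these data known. Counting errors come from amplified ligation products, which are not independent molecules. One interaction partner is not reported here.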

Additional observations from a re-analysis of the deposited data

Results flagged for a closer look

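One value stood apart within its group. For the KLF4 pair in ES between the bin named Fgf4 and the bin 20 kb to its left, replicate 2 had 7.21 CPM, from 20 counts, while the other 3 libraries had 3.51 to 3.65 CPM. The gap was 0.960 of the whole range, above the 95% limit of Dixon's test for 4 libraries. It was the only such library among 10 KLF4 pairs looked at in the groups of 4, and chance gives about 1 in 20 groups.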

How the results depend on the processing

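The call counts of the named bins stayed at 0 in the KLF4 comparison of day 3 with ES, the TKO comparison and Hi-C under each alternative, though DESeq2 gave an adjusted p for 1 of 2, 6 of 14 and 15 of 15 of their pairs. For ES against TKO 0 h, 7 calls became 3 without TMM, 2 with DESeq2 (which gave 10 of the 18 an adjusted p) and 3 to 6 on leaving out single libraries. For the genes' own bins (all alternatives chosen after seeing the data), DESeq2 gave 0 in place of 1 for KLF4 day 3 against ES, 0 in place of 1 for TKO and 0 in place of 2 for ES against TKO 0 h, with an adjusted p for 2 of 3, 4 of 11 and 8 of 11 pairs. Without TMM the last comparison also had 2 calls, but of other pairs and higher in TKO. Leaving out single libraries gave 0 to 1, 0 to 1 and 0 to 2. Totals without TMM gave 1 in place of 0 for day 6 against ES and for day 3 against day 6.

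The deviations of same-numbered libraries had correlations from -0.049 to 0.043. In most groups libraries differed little beyond counting noise, so these correlations cannot tell whether replicate numbers pair the samples. With a replicate block, 0 in place of 1 own-bin pair was called for KLF4 day 3 against ES and 1 in place of 2 for ES against TKO 0 h. For the named bins in ES against TKO 0 h it gave 6 in place of 7, and the remaining counts of calls on these bins had the same value with it.

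Listed interactions of the 3 named bins together, with the bin on either side counted too, went from 0 to 3 in MEF H3K27ac, 24 to 69 in ES, 20 to 47 and 16 to 45 in TKO at 0 h and 24 h, 2 to 9, 0 to 2 and 7 to 17 for KLF4 at day 3, day 6 and in ES, and 18 to 53 and 20 to 58 for Hi-C in MEF and ES. Only anchors at least 20 kb apart left 1 of 2 at day 3 and 4 of 7 in ES KLF4. With 1 count cutoff for all chromosomes, 13 of 20 remained in ES Hi-C. The bins that hold the RefSeq genes gave 6 at day 3 and 1 at day 6.

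Log2 changes near 0 changed sign. In TKO the named Fgf4 bin's pair at 10 kb right went from 0.05 to -0.050 without TMM, its pair at 20 kb right from -0.01 to 0.030 with DESeq2 and to between -0.17 and 0.065 on leaving out single libraries, and Tdgf1's at 10 kb left from 0.08 to -0.028 without TMM. In ES against TKO 0 h without TMM, 10 kb right and left of the named Fgf4 bin became 0.17 and 0.054, 10 kb left of Fgf4's own bin 0.12 and 10 kb left of Tdgf1 0.041. In Hi-C, single libraries moved Lefty2 at 60 kb to between -0.12 and 0.21 and Fgf4 at 20 kb right to between -0.089 and 0.24. For KLF4 day 3 against day 6, 10 kb right of Fgf4's own bin became -0.58 without TMM, -0.16 with the replicate block and -0.17 to 0.14 without single libraries.

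Over all pairs, calls went from 1776 (390 higher, 1386 lower) to 2825 (155 and 2670) in TKO without TMM and to 105 with DESeq2. They went from 530 to 284 and 64 for day 3 against ES, from 70 (54 and 16) to 1159 (1158 and 1) and 14 for day 6 against ES, from 138 (34 and 104) to 1590 (6 and 1584) and 39 for day 3 against day 6, from 5721 (3152 and 2569) to 6257 (4831 and 1426) and 2396 for MEF against ES, and from 9674 to 18163 and 1518 for ES against TKO 0 h. Hi-C went from 40 to 0 with DESeq2 (669 at an unadjusted p under 0.05) and to 74 with the block. Depth limits all values: pairs near 3 CPM rest on few counts per library, a pair below a list's cutoff has no value, and each test has 2 to 4 libraries per group.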
